A study of Mus musculus with 21 samples.

Results

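The 10 genes described here form a list of general surface and junction genes of blood vessel endothelium. They are Cdh5, Cd34, Pecam1, Esam, Emcn, Egfl7, Egfl8, Nos3, Thsd1 and Clec14a. Egfl7 and Egfl8 encode secreted proteins and Nos3 an enzyme, and Egfl8 did not mark the endothelium of both organs alike, as given further on. All 10 were taken by gene symbol, 1 row per symbol, from the 23827 gene rows that each of the 21 tables holds. The study tested a conditional mouse line in which Cre recombinase switches on mCherry-Rpl10a, a ribosomal protein fused to a red fluorescent protein, so that ribosomes of the recombined cells and the RNA on them can be pulled down (translating ribosome affinity purification, TRAP). RNA from E14.5 forebrain and kidney (embryonic day 14.5) was sequenced in 7 groups of 3 samples, and each table gave for every gene its reads and its RPKM, which are the reads scaled to the length of the gene and to the mapped reads of the library. All embryos carried 1 copy of the allele Gt(ROSA)26Sor-mCherry-Rpl10a and 1 copy of a Cre driver. Sox2Cre+/-, which recombines in all cells of the embryo proper, gave the brain and kidney transcriptomes (input RNA, not purified) and the brain and kidney translatomes (purified RNA). Cdh5CreERT2+/-, a transgene driven by the promoter of Cdh5 and activated by tamoxifen, gave the brain and kidney endothelial cell (EC) translatomes. Emx1Cre+/-, active in the neural lineage of the dorsal telencephalon, gave the Emx1-lineage translatome of the forebrain.

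Several features of these groups limit what they can show. By the study's library records each sample held pooled organs, a pair of brains or several kidneys, with more kidneys in a kidney EC sample than in the other kidney samples. The tagged line came from one targeted clone, and the labels give no sex. The Sox2Cre transcriptome and translatome samples of the same number came from the same tissue. By the same records the EC samples of each organ and the Emx1-lineage samples each filled sequencing lanes of their own, so lane and group cannot be told apart there. Tamoxifen, which the EC driver needs for its activity, was given by mouth before harvest, and its dose and timing per group are not given in the sources used here. In the EC groups the promoter of Cdh5 drives the Cre that switches on the tag, so the presence of Cdh5 there is not independent of the driver. Part of the 10 genes also served the study as known endothelial genes.

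Blood vessels are lined by endothelial cells, which hold together through adherens junctions built on VE-cadherin and through immunoglobulin-like adhesion molecules, and which cover their inner surface with sialomucins and C-type lectin proteins. They secrete matrix proteins that guide vessel formation and make nitric oxide, which relaxes the muscle of the vessel wall. In the embryonic brain, vessels grow in from the surrounding plexus and acquire barrier properties, whereas the vessels of the embryonic kidney include those that become the leaky, fenestrated capillaries of the glomerulus.

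The genes lie apart from each other in the genome (GRCm38, GENCODE release M21): on chromosome 8 Cdh5 (chr8:104101625-104144511, plus strand) and Thsd1 (chr8:22227313-22261334, plus), and the other 8 on separate chromosomes. Promoter sequences of RefSeq (GRCm38.p6) were at hand for 6 of the 10 genes, with 8 start sites in all. Those of Cd34, Emcn and Egfl8 are shown because their genes took 3 different courses between the EC translatomes of the 2 organs, given further on. Each line holds the 250 bases before the start, read 5′ to 3′ on the gene's strand, and capitals mark every GGAA, the core of the site bound by ETS factors, or its reverse complement TTCC.
Cd34, chr1:194938571-194938820, plus strand: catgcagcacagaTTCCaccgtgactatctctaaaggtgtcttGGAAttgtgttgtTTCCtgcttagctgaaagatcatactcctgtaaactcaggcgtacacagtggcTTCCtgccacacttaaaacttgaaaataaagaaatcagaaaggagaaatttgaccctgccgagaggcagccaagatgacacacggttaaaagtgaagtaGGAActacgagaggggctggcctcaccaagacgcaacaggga
Emcn, chr3:137340828-137341077, plus strand: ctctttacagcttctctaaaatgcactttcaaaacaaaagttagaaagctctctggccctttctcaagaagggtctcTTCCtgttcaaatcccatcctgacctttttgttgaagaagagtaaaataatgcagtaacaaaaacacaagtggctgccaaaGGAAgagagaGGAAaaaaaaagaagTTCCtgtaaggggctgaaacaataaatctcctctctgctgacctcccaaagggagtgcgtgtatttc
Egfl8, chr17:34615972-34616221, minus strand: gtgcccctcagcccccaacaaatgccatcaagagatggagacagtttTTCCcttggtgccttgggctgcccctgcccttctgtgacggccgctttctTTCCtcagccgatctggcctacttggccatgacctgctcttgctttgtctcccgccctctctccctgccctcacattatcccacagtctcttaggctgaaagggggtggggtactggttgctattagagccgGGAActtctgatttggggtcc

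These windows held 5 ETS cores for Cd34, 4 for Emcn and 3 for Egfl8, and the other windows held 5 for Thsd1, 6 for Clec14a and 5, 3 and 1 for the 3 start sites of Egfl7. So short a motif is common: 93.4% of the 32851 RefSeq promoters of this length held at least 1, with a median of 3 and a 95th percentile of 6, so only Clec14a reached the upper end of that range. The longer AGGAAG contains the core and stood in 29.5% of all promoters. All motifs were counted on both strands. AGGAAG occurred 2 times before Emcn, 1 time each before Cd34 and Thsd1 and 3, 1 and 0 times before the Egfl7 starts, and was not found before Egfl8 or Clec14a. TATAAA, found in 12.4% of promoters, and AGATAA, found in 9.99%, were in none of the 8 windows, TAAACA (12.0%) was found 1 time, before Clec14a, and GGGCGG (32.7%) was found before the third Egfl7 start, Egfl8 and Thsd1. These matches describe the letters and do not show binding.

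Over the 7 groups 9 of the 10 genes had nearly the same profile, with Egfl8 as the exception. The summed RPKM of all 10 ran from 2419 to 2494 in the brain EC translatomes and from 1958 to 2337 in the kidney EC translatomes. It was 361 to 388 in the kidney translatomes, 256 to 285 in the kidney transcriptomes, 126 to 139.9 in the brain translatomes, 83.0 to 101 in the brain transcriptomes and 11.2 to 13.5 in the Emx1-lineage translatomes, and no neighbouring groups in this order overlapped. The reads on the 10 genes made up 0.612% to 0.631% of a brain EC library and 0.507% to 0.586% of a kidney EC library, against 0.00225% to 0.00262% of an Emx1-lineage library. Libraries held 21760652 to 79231692 reads, which limits precision for the lowest values, those of Egfl8, to the counting error of 7 to 25 reads per sample. All 10 genes had reads in all 21 samples and entered every test. In the order of group means, neighbouring groups overlapped for Cdh5 (the 2 EC translatomes, and brain translatome with transcriptome), for Egfl7 and Clec14a (the 2 EC translatomes), for Esam (kidney translatome with transcriptome) and for Thsd1 (brain translatome with transcriptome), and nowhere else. Differences were tested on reads by edgeR's quasi-likelihood test, with p-values adjusted over all genes by the method of Benjamini and Hochberg, and a gene was called, or passed the test, at an adjusted p under 0.001. Folds are those of the fit, SE is the standard error of the log2 fold change, and EC enrichment is the level in an EC translatome over that in the whole-organ translatome.

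**Figure D1:**
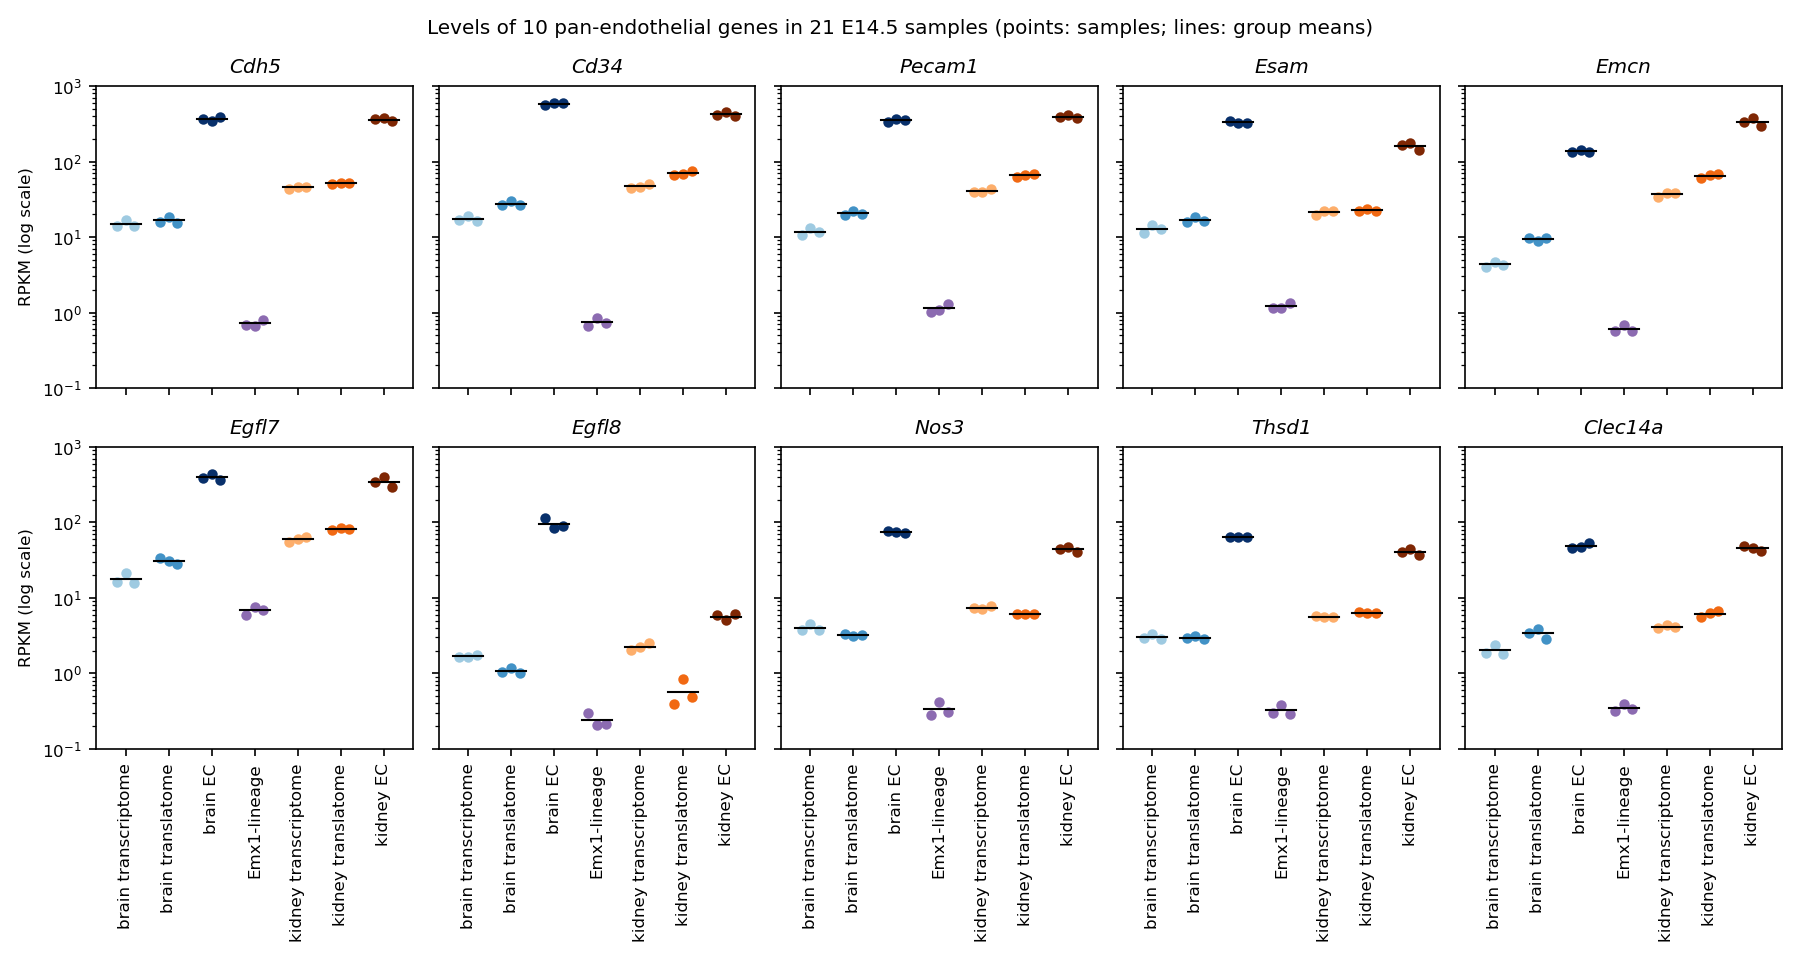
RPKM (log scale) of the 10 genes in the 21 samples, by group, with a line at each group mean. In 9 panels the EC samples are highest, the kidney organ samples lie above the brain organ samples and the Emx1-lineage samples are lowest; in the Egfl8 panel brain EC stands alone at 84.6 to 114 RPKM.

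Cdh5 encodes VE-cadherin, the adhesion molecule of endothelial adherens junctions. It stood at 368, 348 and 393 RPKM in the brain EC translatomes (replicates 1 to 3) and at 364, 373 and 339 RPKM in the kidney EC translatomes, 2 sets that overlapped. The whole-organ translatomes held 16.0, 18.4 and 15.4 RPKM in brain and 51.1, 51.2 and 51.3 RPKM in kidney, and the Emx1-lineage held 0.689, 0.664 and 0.805 RPKM, from 84 to 218 reads. The EC enrichment was 27.2-fold in brain, a log2 change of 4.77 (SE 0.10), and 8.96-fold in kidney. Between the 2 EC translatomes the log2 difference, brain over kidney, was 0.09 (SE 0.08) with an adjusted p of 0.36, so the replicates did not separate the organs.

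Pecam1 (CD31, chr11:106654217-106750628, minus strand), an immunoglobulin-like adhesion molecule at endothelial borders, took a like course. Its RPKM was 337, 370.1 and 352 in brain EC and 390.3, 415 and 372 in kidney EC, with 19.4, 22.0 and 20.3 and 63.0, 66.8 and 67.9 in the brain and kidney translatomes. Every kidney EC sample lay above every brain EC sample, yet the log2 difference of -0.11 (SE 0.08) did not pass the test (adjusted p = 0.25). Esam (chr9:37528078-37538319, plus strand), an adhesion molecule of endothelial tight junctions and platelets, did differ between the organs. It reached 341, 325 and 326 RPKM in brain EC against 166, 175 and 141 RPKM in kidney EC, 2.12-fold higher in brain (log2 1.09, SE 0.08, adjusted p = 9.1e-07). The whole-organ translatomes held 15.8, 18.5 and 16.2 RPKM in brain and 22.1, 23.7 and 22.1 RPKM in kidney, and the EC enrichment was 24.0-fold and 9.06-fold.

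VE-cadherin works through the catenins, which tie it to actin, and through junction regulators. Of 12 genes listed as partners, which include the separate cadherin Cdh2, 10 rose and none fell in brain EC over the brain translatome. In kidney EC 9 rose and 1, Cdh2, fell. Of all genes tested, 24.8% rose and 21.4% fell in brain EC and 16.7% rose and 15.0% fell in kidney EC. The list had median log2 changes of 1.37 and 0.72 beside -0.01 and -0.04 over all genes tested. The catenin genes Ctnna1, Ctnnb1 and Ctnnd1, expressed in most cell types, rose 4.48-, 2.49- and 2.76-fold in brain EC and by log2 0.59, 1.20 and 0.91 in kidney EC. Jup (plakoglobin) rose 5.29- and 3.82-fold, the largest change among the partners in kidney, and Vcl (vinculin) had the largest in brain, 5.51-fold. Ptprb, the receptor phosphatase that associates with VE-cadherin and is counted below among the other endothelial surface genes, rose 17.6- and 6.17-fold. N-cadherin (Cdh2) went opposite ways, 2.70-fold up in brain EC and 2.06-fold down in kidney EC, each against its own organ, and was 18.4-fold higher in brain EC than in kidney EC. Cdh2 was also called higher in brain than in kidney in the whole-organ translatomes and transcriptomes, with the highest called change of the 12 in both. The 3 catenin genes and Jup did not pass the test between the EC translatomes (log2 -0.25 to 0.29, adjusted p 8.5e-03 to 0.02).

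The sialomucins parted between the organs. Cd34 (chr1:194938819-194961279, plus strand), a sialomucin of endothelium and blood progenitors, had the highest level of the 10 genes in either EC translatome. It measured 555, 600.1 and 602 RPKM in brain EC and 409, 455 and 397 RPKM in kidney EC, and the sets did not overlap. The brain level was 1.43-fold higher (log2 0.51, SE 0.08, adjusted p = 2.0e-04), a call lost without kidney EC replicate 1 (adjusted p = 1.6e-03) and with limma on log2(RPKM + 1) or log2(RPKM + 0.1) in place of edgeR (adjusted p = 1.4e-03 and 2.8e-03). Emcn (endomucin, chr3:137341067-137432185, plus strand), a sialomucin of capillaries and veins, went the other way, at 134, 141 and 134 RPKM in brain EC and 329.5, 375 and 294 RPKM in kidney EC. It was 2.37-fold lower in brain EC, a log2 difference of -1.24 (SE 0.09) with an adjusted p of 3.9e-07. Emcn also had the widest gap between the whole organs, 9.79, 8.95 and 9.79 RPKM in the brain translatomes against 59.7, 65.4 and 68.8 RPKM in the kidney translatomes.

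Podxl (podocalyxin), the sialomucin related to Cd34, rose 8.04-fold in brain EC and 4.76-fold in kidney EC over the organ translatomes, and was 2.31-fold lower in brain EC than in kidney EC. Podocytes of the kidney also express Podxl. Another relative, Podxl2, fell 6.21-fold and 4.02-fold.

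Clec14a (chr12:58264720-58269290, minus strand), a C-type lectin receptor of growing vessels, measured 46.1, 47.5 and 53.5 RPKM in brain EC and 49.0, 45.7 and 41.2 RPKM in kidney EC, which overlapped (log2 difference 0.16, SE 0.09, adjusted p = 0.14). Its EC enrichment was 17.7-fold in brain and 9.44-fold in kidney, from 3.38, 3.92 and 2.87 and 5.60, 6.22 and 6.63 RPKM in the organ translatomes. Its ligand, the matrix protein Mmrn2, rose 30.3- and 7.61-fold and the related receptor Cd93, which binds Mmrn2 too, rose 27.5- and 8.50-fold. Between the EC translatomes Mmrn2 did not pass the test (log2 0.11, SE 0.10, adjusted p = 0.36), whereas Cd93 was 1.73-fold higher in brain EC. Thsd1, a transmembrane protein with a thrombospondin domain, read 64.8, 64.5 and 64.3 RPKM in brain EC and 41.0, 44.5 and 37.2 RPKM in kidney EC. The brain EC samples of Thsd1 lay within 1 RPKM of each other and above all kidney EC samples, a 1.63-fold difference (log2 0.70, SE 0.07, adjusted p = 9.0e-06).

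Egfl7 and Egfl8 encode related secreted proteins with EGF-like domains. Egfl7 (chr2:26580014-26593120, plus strand), which binds the vessel matrix, measured 382, 438 and 362 RPKM in brain EC and 344, 401 and 290.3 RPKM in kidney EC. These overlapped, with a log2 difference of 0.24 (SE 0.11) and an adjusted p of 0.087. Egfl7 had the smallest EC enrichment of the 10 genes in both organs against the translatomes, 15.6-fold in brain and 5.57-fold in kidney. It was also the highest of the 10 in the Emx1-lineage, at 5.90, 7.67 and 7.01 RPKM, where the next highest gene, Esam, measured 1.15, 1.16 and 1.33 RPKM.

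An intron of Egfl7 holds the endothelial microRNA miR-126, whose strand miR-126a-3p (chr2:26591402-26591423, plus strand, RefSeq GRCm38.p6) is shown with its seed, bases 2 to 8, in capitals.
mmu-miR-126a-3p: uCGUACCGugaguaauaaugcg
The row for this microRNA held 1, 5 and 4 reads in the brain transcriptomes, 9, 4 and 6 in the kidney transcriptomes, 1, 0 and 3 in brain EC and 0, 0 and 1 in kidney EC, and no read in any sample of the other 3 groups. Libraries of this kind select polyadenylated RNA and long fragments, and at such counts no comparison was made.

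Egfl8 (chr17:34613349-34615971, minus strand) differed most from the rest. It measured 114, 84.6 and 90.5 RPKM in brain EC, from 4752 to 7422 reads a sample, and 5.86, 5.10 and 6.04 RPKM in kidney EC, from 176 to 274 reads. The brain EC level was 17.4-fold higher, a log2 difference of 4.12 (SE 0.13) with an adjusted p of 9.1e-10, and no other of the 10 genes differed by more than 2.37-fold in either direction. In brain its EC enrichment was 109-fold (log2 6.77, SE 0.14) over a translatome level of 1.04, 1.18 and 1.01 RPKM. In kidney it was 12.6-fold (log2 3.66, SE 0.25) over 0.388, 0.844 and 0.481 RPKM, which rested on 10, 21 and 11 reads. Against the kidney transcriptome, where Egfl8 stood higher at 2.05, 2.23 and 2.50 RPKM, the kidney EC enrichment was 3.40-fold, the smallest of the 10. On the log2(RPKM + 1) scale of limma, which understates changes of low values, the log2 enrichment of Egfl8 over the translatome was 5.54 in brain and 2.09 in kidney, and over the kidney transcriptome 1.03.

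The gene next to Egfl8 on the same strand and upstream of it, Ppt2 (chr17:34616662-34628510), encodes a lysosomal thioesterase of broad expression. An annotated transcript, Gm20460, runs on this strand through 10688 bases of Ppt2 and 1488 bases of Egfl8, and whether reads were counted by strand is not given in the sources used here. Ppt2 measured 86.1, 72.7 and 69.3 RPKM in brain EC against 21.4, 20.9 and 21.1 RPKM in the brain translatomes, 4.39-fold higher (log2 2.13, SE 0.08). In kidney EC it measured 25.7, 28.4 and 23.1 RPKM against 26.1, 26.9 and 27.4 RPKM in the kidney translatomes (log2 0.30, SE 0.08, adjusted p = 7.7e-03), short of the threshold. By mean RPKM it stood at 96.1% of the kidney translatome, and the samples overlapped. The fit corrects for library composition and RPKM does not, and without that correction the median of all genes here moved by -0.37. For Ppt2 brain EC exceeded kidney EC 3.05-fold, so both neighbours were higher in brain EC. In the Emx1-lineage, where Egfl8 was at 0.299, 0.209 and 0.215 RPKM, Ppt2 stood at 16.7, 15.5 and 16.6 RPKM.

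**Figure D2:**
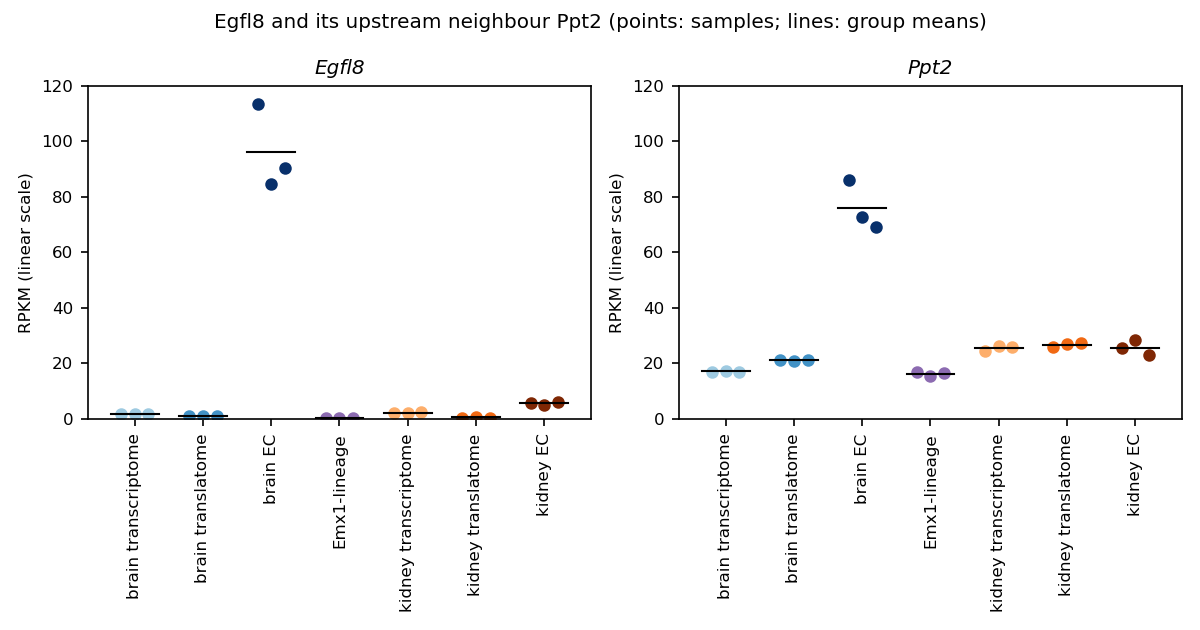
RPKM (linear scale) of Egfl8 and of its upstream neighbour Ppt2 in the 21 samples, with a line at each group mean. Egfl8 is at 84.6 to 114 RPKM in brain EC and at 6.04 RPKM or less elsewhere; Ppt2 is at 69.3 to 86.1 RPKM in brain EC and at 15.5 to 28.4 RPKM in all other groups.

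Nos3, the endothelial nitric oxide synthase (chr5:24364810-24384474, plus strand), measured 77.9, 74.8 and 73.3 RPKM in brain EC and 44.9, 47.9 and 40.7 RPKM in kidney EC, with no overlap and a 1.75-fold difference (log2 0.81, SE 0.07, adjusted p = 3.0e-06). The organ translatomes held 3.28, 3.13 and 3.20 RPKM in brain and 6.19, 6.04 and 6.11 RPKM in kidney. The EC enrichment was 28.7-fold and 9.30-fold. Atg9b overlaps the end of Nos3 on the opposite strand by 294 bases, and reads there could not be assigned with certainty.

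Of 20 genes for proteins that bind, feed or answer the synthase, 10 rose and 7 fell in brain EC and 8 rose and 4 fell in kidney EC over the organ translatomes (median log2 0.23 and 0.06 beside -0.01 and -0.04 over all genes, of which 24.8% rose and 21.4% fell in brain EC and 16.7% rose and 15.0% fell in kidney EC). Nostrin, which moves the enzyme within the cell, rose 19.5-fold in brain EC and 1.96-fold in kidney EC. Cav1, the caveolar protein that holds the enzyme inactive, rose 16.5- and 6.31-fold. Arg2, an arginase that uses the same substrate, had the largest fall in both, 3.49- and 4.01-fold, and the nitric oxide receptor subunit Gucy1a3 fell 2.50- and 3.56-fold. Between the EC translatomes 7 of the 20 were higher and 4 lower in brain, where 20.1% of all genes were higher and 16.9% lower, led by the arginine transporter Slc7a1 (9.70-fold higher) and ended by Gucy1a3 (2.33-fold lower). The inducible synthase Nos2 rose 33.9-fold in brain EC and 9.37-fold in kidney EC, and the neuronal synthase Nos1 fell 3.22-fold in kidney EC and did not pass the test in brain EC (log2 -0.49, SE 0.12, adjusted p = 2.7e-03).

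Whether EC purification concentrated these transcripts was asked against both reference RNAs. All 10 genes rose in brain EC over the brain translatome, where 24.8% of the 19103 genes tested were called higher. The members' median log2 change was 4.64, or 24.98-fold, against -0.01 over all genes tested. All 10 rose in kidney EC over the kidney translatome, against 16.7% of all genes, with a median log2 change of 3.10, or 8.57-fold. Thsd1, Cd34, Pecam1 and Emcn rose 26.6-, 26.0-, 21.0- and 17.5-fold in brain and 8.19-, 7.67-, 7.62- and 6.62-fold in kidney. Against the transcriptomes all 10 rose as well, with background shares of 26.8% in brain and 22.7% in kidney and median log2 changes of 4.99 and 3.38. Those folds ran from 23.9 for Nos3 to 72.2 for Egfl8 in brain and from 3.40 for Egfl8 to 14.7 for Clec14a in kidney. The adjusted p of the members lay between 3.9e-13 and 2.5e-12 in brain EC over the translatome, and all 4 counts stayed at 10 under every alternative run. The 2 comparisons of an organ share its EC samples.

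**Figure D3:**
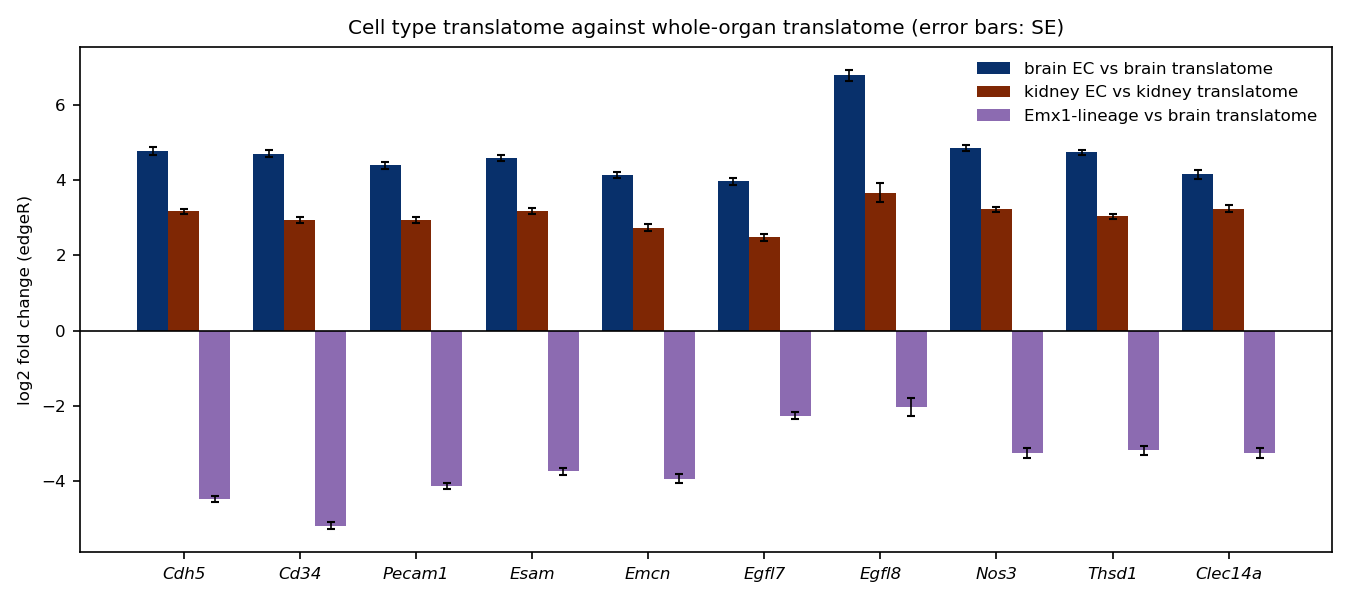
Log2 fold change (edgeR) of the 10 genes in brain EC, kidney EC and the Emx1-lineage, each over the whole-organ translatome, with bars of 1 SE. The blue brain EC bars, 3.96 to 6.77, exceed the brown kidney EC bars, 2.48 to 3.66, for every gene, and all Emx1-lineage bars lie at or below -2.03.

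The size of these folds depends on scaling. With total counts and no correction for library composition, the median over all genes moved by -0.30 in brain EC over the translatome and by -0.37 in kidney EC, and the members moved by as much, to median folds of 20.3 and 6.64. In a bulk sample fewer cells of a type and less RNA per cell cannot be told apart. Markers of other cell types were present in the EC samples. The 10 neural markers summed to 417 to 528 RPKM in brain EC against 2129 to 2167 in the brain translatomes, or 22.2% of it, and none was at 0. In kidney EC the nephron lineage markers were at 27.8%, the ureteric bud markers at 32.7% and the stromal markers at 46.2% of the kidney translatome. Pericyte and mural markers stood at 63.6% in brain EC and 63.9% in kidney EC, macrophage markers at 48.1% and 20.5%, and red blood cell markers at 75.2% and 34.4%. The blood progenitor and megakaryocyte list was at 93.7% in brain EC and at 198% in kidney EC, where the sum ran from 43.0 to 54.1 RPKM. Of its 10 genes, Pf4 and Kit rose and Ptprc and Runx1 fell in kidney EC, with a median log2 change of -0.89. Over all genes 24.8% rose and 21.4% fell in brain EC and 16.7% rose and 15.0% fell in kidney EC. Cd34, Esam and Pecam1 are also expressed by blood progenitors or platelets, and the part of these cells in their levels was not tested.

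The enrichment was larger in brain than in kidney for all 10 genes by an interaction test over 12 samples, where 16.5% of all genes were called in this direction. The median log2 difference of the 2 enrichments was 1.57, about 2.97-fold, against 0.16 over all genes. It ran from 0.93 for Clec14a and 1.43 for Emcn and 1.43 for Esam to 3.14 (SE 0.34) for Egfl8. This was not particular to the 10 genes. Of the 26 other endothelial surface and junction genes described below, 23 were called in this direction and 1 in the other (median log2 1.54). In the brain translatome 8 of the 10 were also lower than in the kidney translatome, against 26.2% of all genes called lower, with a median log2 difference of -1.03. The exceptions were Esam (log2 -0.23, SE 0.08, adjusted p = 0.019, or log2 -0.42 and 3.0e-04 with total counts, which moved the median of all genes by -0.19) and Egfl8 (log2 1.11, SE 0.30, adjusted p = 5.2e-03). In the transcriptomes 9 of the 10 were lower in brain, against 26.3% of all genes, all but Egfl8 (log2 -0.23, SE 0.15, adjusted p = 0.2). Of the 26 other endothelial genes 18 were lower and 2 higher in brain in the translatomes (median log2 -1.08). In the transcriptomes 18 were lower and 3 higher (median log2 -0.98). Single libraries decided a few of the calls of the 10 genes. In the translatomes Clec14a was lost without brain replicate 1 (adjusted p = 4.7e-03) or kidney replicate 3 (1.5e-03) and Egfl8 passed without kidney replicate 2 (log2 1.51, adjusted p = 8.0e-04), and in the transcriptomes Esam was lost without brain replicate 3 (adjusted p = 1.7e-03). With limma on log2(RPKM + 0.1) the calls of Clec14a in the translatomes (adjusted p = 1.5e-03) and of Esam in the transcriptomes (1.1e-03) were lost, and in one fit of all samples Egfl8 passed in the translatomes (3.5e-04). Emcn had the widest gap in the transcriptomes too, 7.44-fold lower in brain, at 4.05, 4.71 and 4.32 against 33.5, 38.4 and 38.6 RPKM.

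Set against each other, the EC translatomes differed in 6 of the 10 genes. In brain EC 5 genes were higher than in kidney EC (Egfl8, Esam, Nos3, Thsd1 and Cd34) and 1 was lower (Emcn), where 20.1% of all genes were called higher and 16.9% lower, and Cdh5, Pecam1, Egfl7 and Clec14a did not pass the test. The median log2 difference of the 10 genes was 0.38 beside 0.01 over all genes, with quartiles of -0.56 and 0.85. Among 26 other endothelial surface and junction genes, 10 were higher and 6 lower in brain EC (median log2 0.28), from Jam2, a tight junction adhesion molecule and 11.2-fold higher, to Plvap, the diaphragm protein of fenestrae and 4.81-fold lower. Jam2 also had the highest called change of the 26 between the whole organs, in translatomes and transcriptomes, and Plvap was called lower in brain in both. The tight junction gene Cldn5, in this list too, was 4.11-fold higher in brain EC. It is named here after its value was seen. In the same comparison all 10 neural markers (median log2 9.00) and 7 of 10 macrophage and microglia markers (median log2 1.37) were higher in brain EC, and their part in these differences was not tested.

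**Figure D4:**
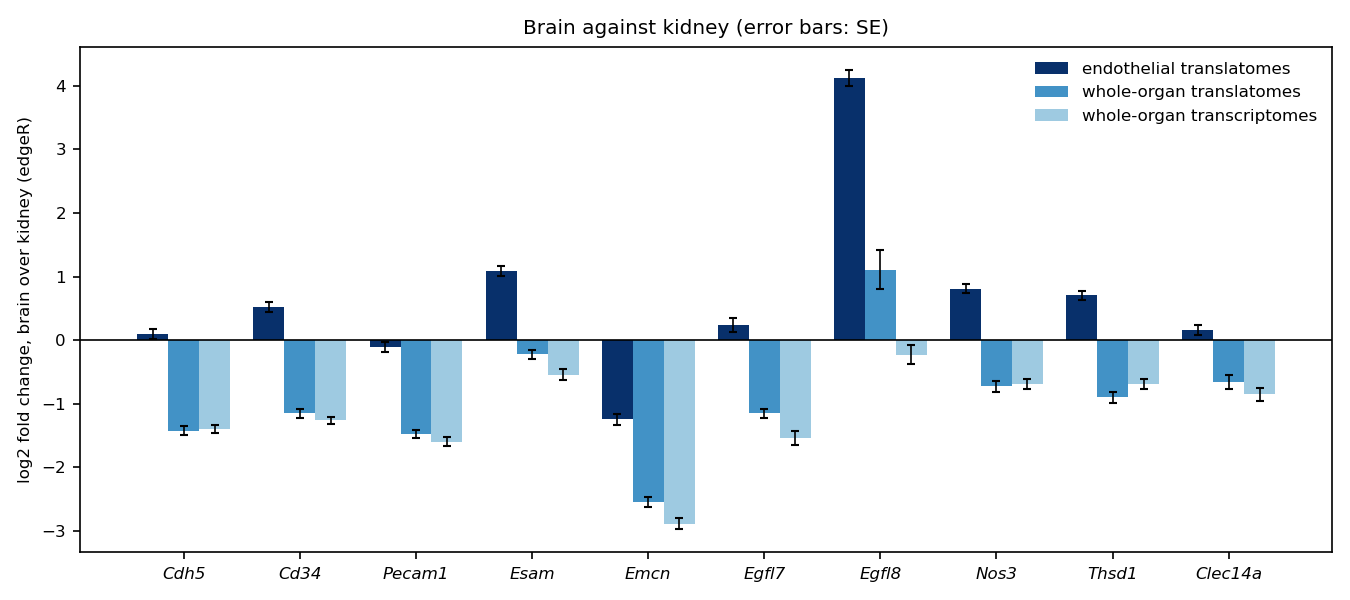
Log2 fold change (edgeR), brain over kidney, of the 10 genes in the EC translatomes, the whole-organ translatomes and the whole-organ transcriptomes, with bars of 1 SE. In the whole organs all bars but that of Egfl8 in the translatomes lie below 0; in the EC translatomes Emcn at -1.24 and Pecam1 at -0.11 are the only ones below 0, and Egfl8 reaches 4.12.

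The Emx1-lineage, a neural population, served as a contrast. All 10 genes fell in it against the brain translatome, where 12.8% of all genes were called lower, with a median log2 change of -3.49 against 0.00 over all genes. This comparison and that of brain EC share the brain translatome samples. As a share of the brain translatome RPKM, the Emx1-lineage level had a median of 8.76%, from 2.69% for Cd34 to 22.4% for Egfl8. Cd34 measured 0.658, 0.841 and 0.717 RPKM there against 26.3, 29.8 and 26.3 RPKM, a log2 change of -5.18 (SE 0.09). Egfl7 and Egfl8 fell least, by 2.25 (SE 0.09) and 2.03 (SE 0.25) on the log2 scale, and Egfl8 rested on 25, 7 and 12 reads. The other 7 fell by 3.17 for Thsd1 to 4.47 for Cdh5, among them Nos3 at 0.280, 0.420 and 0.310 RPKM and Emcn at 0.569, 0.690 and 0.568 RPKM. The mean of 7 of the 10 genes was under 1 RPKM in the Emx1-lineage. With limma on log2(RPKM + 1) 9 of the 10 falls, all but that of Egfl7, were smaller by more than 1.5 times, at log2 -4.03 to -0.74. Macrophage markers summed to 4.94% of their level in the brain translatome and mural markers to 25.6%, while the red blood cell list stood at 103% and the neural list at 116%. The part of these cell types in the fall of the 10 genes was not tested.

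Of the other 26 endothelial surface and junction genes, 25 rose and 1 fell in brain EC (median log2 4.35), 25 rose in kidney EC (median 2.83) and 24 fell in the Emx1-lineage (median -3.32). Over all genes 24.8% rose and 21.4% fell in brain EC, 16.7% rose in kidney EC and 12.8% fell in the Emx1-lineage. Jam3 did not pass in kidney EC (log2 0.15, adjusted p = 0.067), Jam3 and Podxl did not pass in the Emx1-lineage (log2 0.05 and -0.23), and the falls of Jam2 and S1pr1 there were small (log2 -0.31 for each). Mmrn2 had the largest rise in brain EC, and the junction gene Jam3 was the one that fell there, 2.16-fold. In kidney EC the largest rise was that of the guidance receptor Robo4, 8.91-fold, and the smallest called was that of Jam2, 1.88-fold. Of 23 relatives of the members by gene family, 8 rose and 8 fell in brain EC and 6 rose and 12 fell in kidney EC, from Nos2 at the top in both to Podxl2 in brain and the coxsackie receptor relative Clmp in kidney (4.50-fold lower). Podxl, Thbd and Cd93 are counted in both of these lists, and Cdh2 is counted among the relatives and the listed partners of VE-cadherin.

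Purified and input RNA of the same organ were compared in the Sox2Cre samples as a readout of association with ribosomes, since a shift here would enter any enrichment computed against the transcriptome. The study allows that biases of the method may account for part of such shifts. It names promoter activity of the tag and levels of endogenous Rpl10a, either of which may differ between cell types. In brain 5 of the 10 genes were higher in the translatome and none lower, against 18.6% and 18.5% of all genes. Emcn led, at 9.79, 8.95 and 9.79 RPKM in the translatomes over 4.05, 4.71 and 4.32 RPKM in the transcriptomes, 2.23-fold, followed by Egfl7, Pecam1, Clec14a and Cd34 (1.88-, 1.78-, 1.71- and 1.62-fold). The brain transcriptomes held 16.1, 21.5 and 15.9 RPKM of Egfl7, 10.6, 13.0 and 11.6 of Pecam1, 1.87, 2.37 and 1.80 of Clec14a and 16.7, 18.7 and 16.5 of Cd34, each set below all 3 translatome values of its gene. With limma on log2(RPKM + 1) and log2(RPKM + 0.1) the brain calls of Egfl7 (adjusted p = 3.2e-03 and 3.4e-03) and Clec14a (8.1e-03 and 7.6e-03) were lost, and Egfl8 passed as lower (6.4e-04 and 9.2e-04). The 5 genes that were higher in kidney carried the same names, 1.75-fold for Emcn, 1.62-fold for Pecam1 and between 1.43- and 1.49-fold for the others, against 14.9% of all genes. Egfl8 was 3.92-fold lower in the kidney translatome (log2 -1.97, SE 0.27, adjusted p = 1.2e-04), where 15.8% of all genes were called lower, a call lost without kidney translatome replicate 3 (adjusted p = 1.0e-03). In kidney both limma settings lost Egfl7 (adjusted p = 1.2e-03 and 3.2e-03) and Clec14a (1.5e-03 and 2.8e-03), and log2(RPKM + 0.1) also lost Cd34 (1.7e-03) and Egfl8 (2.2e-03). Of 7 red blood cell markers tested, 5 fell in the translatome of each organ (median log2 -2.42 in brain and -2.28 in kidney), and the summed RPKM of the whole list in the transcriptome was 243% of that in the translatome in brain and 374% in kidney. Of 10 macrophage and microglia markers, 4 rose and 1 fell in brain and 2 rose and 1 fell in kidney. The part of these cells in the shifts of the 10 genes was not tested.

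Cdh5, Esam, Nos3 and Thsd1 did not pass in either organ without pairing. Cdh5 stood at 14.1, 16.8 and 14.0 RPKM in the brain transcriptomes and 43.5, 46.3 and 46.4 RPKM in the kidney transcriptomes, against translatome levels given above, and Esam at 11.3, 14.4 and 12.8 and 19.6, 22.2 and 22.1 RPKM. Nos3 was the only one of the 4 with transcriptome values above its translatome values in both organs, at 3.71, 4.52 and 3.71 RPKM in brain and 7.25, 7.06 and 7.70 RPKM in kidney. Cdh5 differed by log2 0.18 (SE 0.08) in brain and 0.18 (SE 0.04) in kidney, Nos3 by -0.28 (SE 0.09) and -0.26 (SE 0.07), and Thsd1 by -0.003 (SE 0.09) and 0.20 (SE 0.06). Because samples of the same number came from the same tissue, a fit with the replicate number as a block was also run. It added Esam in brain (adjusted p = 1.7e-06, and 1.5e-04 with DESeq2 without the block), for a total of 6 higher, and in kidney Cdh5 as higher (adjusted p = 1.2e-05, and 2.3e-04 with DESeq2 without the block) and Nos3 as lower (adjusted p = 1.7e-05), for totals of 6 higher and 2 lower. Over all genes in kidney 9496 were called with the block and 5929 without it, of 19336 tested. Clec14a lost its call in brain without translatome replicate 1 (adjusted p = 1.3e-03) and in kidney without transcriptome replicate 1 or translatome replicate 2 (adjusted p = 1.2e-03 in both), while Esam in brain passed without transcriptome replicate 2 (adjusted p = 3.7e-04).

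**Figure D5:**
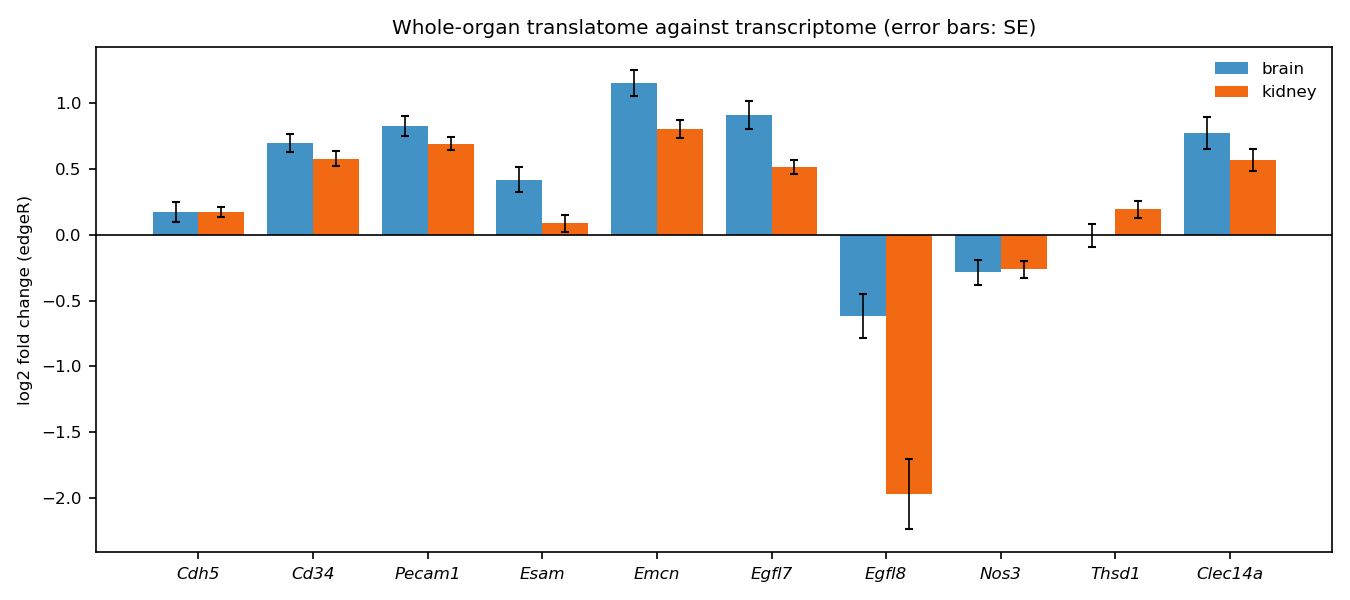
Log2 fold change (edgeR), whole-organ translatome over transcriptome, of the 10 genes in brain and kidney, with bars of 1 SE. Emcn has the tallest bars, 1.16 in brain and 0.80 in kidney, and Egfl8 the lowest, -0.62 and -1.97.

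Whether the ratio of purified to input RNA differed between the organs was tested as an interaction: 0 of the 10 genes passed with edgeR, where 6.47% of all genes did, and 0 passed with DESeq2, while 4 of the 10 had an unadjusted p under 0.05. With the replicate block 2 passed, Egfl7 (log2 difference, brain minus kidney, 0.39, adjusted p = 5.4e-04) and Egfl8 (1.34, adjusted p = 4.8e-04). Over all genes 3445 were called with the block and 1301 without it, of 20108 tested. Without kidney translatome replicate 2 the unpaired test passed Egfl8 (log2 1.73, adjusted p = 8.2e-04). Over all samples and without the block the values were 0.38 (SE 0.13) with an adjusted p of 0.046 and 1.34 (SE 0.31) with an adjusted p of 5.0e-03.

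The likeness of the profiles was measured as Pearson's r of log2(RPKM + 1) over the 21 samples, given as a description, since samples of a group share their driver and organ. Among the 36 pairs of the 10 genes that leave out Egfl8, r lay between 0.90 and 0.997 with a median of 0.97. In the 9 pairs with Egfl8 it lay between 0.60 and 0.86. Nos3 and Thsd1 were each other's nearest gene (r = 0.9973). The vessel receptor gene Tie1 was nearest to Cdh5, Cd34 and Pecam1, the TGF-beta coreceptor gene Eng to Esam, the ETS factor gene Fli1 to Egfl7, Gimap6 to Emcn and Robo4 to Clec14a, all at r of at least 0.995. Egfl8 was nearest to the zinc transporter gene Slc30a1, at r = 0.9851. Of 11827 genes compared with the mean of the 10, the 10 nearest were Sox7, Cd93, Pde8a, Lyn, Tie1, Eng, Flt1, Robo4, Klhl6 and Kdr, with r from 0.9973 for Sox7 to 0.994 for Kdr. With a pseudocount of 0.1 in place of 1, 6 of these 10 were again among the nearest 10.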

How the data were processed

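TRAP and input RNA of 21 mouse samples (3 per group, 7 groups, grouped by the sample labels) were sequenced by the authors from TruSeq libraries. The authors mapped reads to GRCm38 (mm10) with RUM and deposited, for each RefSeq gene, raw read counts and RPKM values from rpkmforgenes, with replicates kept separate. Strand use in counting is not given in the sources used here. Library totals were 21760652 to 79231692 reads.

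Counts were tested with edgeR 4.0.16 (R 4.3.3) by its quasi-likelihood test with TMM factors on the samples of the groups compared, over genes with at least 1 count, and p-values were Benjamini-Hochberg adjusted over all genes tested and called under 0.001. The SE was taken from the F statistic. Each organ difference was an interaction over 12 samples. Alternatives were DESeq2 1.42.0, RLE factors, total counts, at least 10 counts in 3 samples, a replicate block, one fit of all samples, limma 3.58.1 on log2(RPKM + 1) and log2(RPKM + 0.1), and each replicate left out. The script was tested on simulated counts.

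Numbers paired the samples of transcriptome and translatome, which the study's records tie to the same tissue (r of their deviations from the group means 0.487, 0.387 and 0.687 in brain and 0.663, 0.526 and 0.577 in kidney, over 10226 genes). Between brain and kidney EC the same numbers correlated as well (0.419, 0.208 and 0.187), a hint from the data only.

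All 10 genes were named in each comparison, from each list the genes with the highest and lowest called change and the direct partners, and the 10 genes nearest in profile among those with a mean of at least 5 RPKM in a group. The members and lists were chosen with earlier results of these data known. Promoter and microRNA sequences are from RefSeq (GRCm38.p6).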

Additional observations from a re-analysis of the deposited data

Results flagged for a closer look

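The enrichment in EC over the whole-organ translatome differed between brain and kidney for each of the 10 genes and for Ppt2 by the interaction test of edgeR over 12 samples. The log2 difference, brain minus kidney, was 1.63 for Cdh5, 1.79 for Cd34, 1.49 for Pecam1, 1.43 for Esam, 1.43 for Emcn, 1.51 for Egfl7, 1.65 for Nos3, 1.72 for Thsd1 and 0.93 for Clec14a. It was 3.14 for Egfl8 and 1.87 for its neighbour Ppt2. The median over all genes tested was 0.16, with quartiles of -0.39 and 0.99. The difference is built from 2 gaps, brain over kidney: that between the EC translatomes less that between the whole-organ translatomes. The whole-organ gap was called lower in brain for 8 of the 10 genes. The EC gaps of Cdh5, Pecam1, Egfl7 and Clec14a did not pass the test (log2 -0.11 to 0.24), and their whole-organ gaps ran from -1.48 to -0.66. The 2 gaps were -1.24 and -2.55 for Emcn, 0.51 and -1.16 for Cd34 and 0.70 and -0.90 for Thsd1. They were 0.81 and -0.73 for Nos3, 1.09 and -0.23 for Esam and 4.12 and 1.11 for Egfl8. What set either gap was not tested.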

How the results depend on the processing

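The 10 of 10 calls in the 4 EC comparisons, in the Emx1-lineage and in the EC enrichment difference stayed at 10 under all alternatives run. Of the single values recomputed, 1755 kept direction and call, 22 lost the call, 15 gained it and 8 changed sign, none of them called. In the kidney translatome over transcriptome, 2 genes passed with limma on log2(RPKM + 0.1) in place of 6. With the replicate block 2 genes passed in the ribosome association difference in place of 0, and 0 to 1 passed when a replicate was left out. The block changed the other members' calls given in the report and no call in the remaining comparisons. Signs turned for Thsd1 in brain translatome over transcriptome with the replicate block (log2 0.0006) or a replicate left out, and for Pecam1 in brain EC over kidney EC in one fit of all samples (0.0091). With a replicate left out they turned for Cdh5 and Nos3 in the ribosome association difference. Over all settings run, Thsd1 lay between -0.0349 and 0.0487, Cdh5 between -0.0916 and 0.0614 and Nos3 between -0.0922 and 0.0509. Over all genes, calls in the Emx1-lineage went from 4191 to 1859 and 1555 with limma on log2(RPKM + 1) and log2(RPKM + 0.1). They went from 7221 to 4220 in brain translatome over transcriptome with log2(RPKM + 0.1), from 5929 to 9496 with the block and 2821 with log2(RPKM + 0.1) in kidney, and from 1301 to 2669 with DESeq2, 3445 with the block, 496 with log2(RPKM + 0.1) and 850 without kidney transcriptome replicate 2 in the ribosome association difference. The cause of these changes was not tested. On log2(RPKM + 1), which shrinks changes of low values by construction, folds moved by more than 1.5 times for 4 members in brain EC over the translatome (log2 3.52 to 5.54) and 5 over the transcriptome (3.94 to 5.17), for 1 and 3 in kidney EC (2.09, and 1.03 to 3.17) and for 9 in the Emx1-lineage (-4.03 to -0.74). Among the genes nearest in profile, 6 of 10 were shared with a pseudocount of 0.1. The lowest depth, 7 to 25 reads for Egfl8 in the Emx1-lineage and 10 to 21 in the kidney translatome, limits those values most.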

Other observations

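Gene families of the members parted between the EC translatomes and between the whole organs. Of 23 relatives, 13 were higher and 5 lower in brain EC than in kidney EC, where 20.1% of all genes were higher and 16.9% lower, and their median log2 difference was 0.94 beside 0.01 over all genes. In the brain transcriptome 12 were higher and 10 lower than in kidney, and in the translatome 10 and 9 (median log2 0.27 and 0.18). Of all genes 26.3% and 26.2% were lower there, and the share called higher is not given here. Over all genes the median log2 differences were -0.02 and -0.01. Their quartiles were -0.86 and 0.86 in the transcriptomes and -0.97 and 0.89 in the translatomes. Cdh7 stood at the top of the relatives in both. Of the relatives higher in brain EC, Podxl2, Cdh8, Cxadr, Clmp, Cdh4 and Cdh7 were lower there than in the brain translatome, and Nos2, Cd93, Thbd and Cdh2 higher. Between the EC translatomes the cadherin gene Cdh7 stood at the top and Cdh3 (7.29-fold lower) at the bottom. Cdh7 was lower in brain EC than in the brain translatome (log2 -0.85), and Cdh3 was 4.42-fold lower in kidney EC than in the kidney translatome. All 10 neural markers were higher in brain EC than in kidney EC (median log2 9.00), and the part of other cells of the organ in the relatives' differences was not tested.

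The list of lymphatic endothelial markers, which also holds Flt4 and Reln, genes of blood vessel endothelium and of neurons, summed to 184 to 278 RPKM in brain EC and to 95.5 to 100.4 RPKM in kidney EC, 321% and 246% of the organ translatomes. In brain EC Reln and Flt4 rose and Prox1 and Pdpn fell (median log2 -0.28), and in kidney EC Reln, Lyve1 and Flt4 rose and Pdpn fell (median log2 1.03). These are counts among 5 genes tested, where 24.8% of all genes rose and 21.4% fell in brain EC. In kidney EC 16.7% of all genes rose and 15.0% fell.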
